A study of Rattus norvegicus with 4 samples.

Results

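Gpnmb and the 4 transcription factors of the MiT/TFE family (Mitf, Tfeb, Tfe3 and Tfec) were followed on 4 microarrays of rat NR8383 cells, a macrophage line started from lung lavage of a normal rat. The members were taken as all gene spots whose transcript accession maps to one of the 5 gene symbols. This gave 8 probes and 17 spots, of 45598 probes and 58717 gene spots in all, and 5 of 16575 named genes. All 4 cultures had received the multi-walled carbon nanotubes named NRCWE006 for 4 h, at a dose of 1 cm2/cm2. These are 4 biological replicates of 1 group, with 1 array for each culture, and all had 20 passages and 48 h of growth in 25 cm2 flasks. Cultures without nanotubes were not analysed here, so no value is an effect of the exposure. The set was selected on measured values of these arrays, among them the wide spread of Mitf, so all values are given as a description and no test was made.

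MiT/TFE factors are basic helix-loop-helix leucine zipper proteins that bind DNA as dimers, to E-box sites. On a well-fed lysosome the kinase complex mTORC1 phosphorylates them, 14-3-3 proteins hold them in the cytosol, and the phosphatase calcineurin releases them when the lysosome is starved or damaged. In the nucleus they switch on genes for lysosomal enzymes, the proton pump and autophagy, a set known as the CLEAR network. Gpnmb encodes a transmembrane glycoprotein of melanosomes, osteoclasts and lipid-loaded or lysosome-stressed macrophages, and it is a known target of the family.

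The Gpnmb promoter is shown because it carries such a site within the window just before the gene start. It covers chr4:79340878-79341127 on the plus strand of rat build GRCr8 (RefSeq), 5′ to 3′, with the M-box-like E-box in capitals.
Gpnmb: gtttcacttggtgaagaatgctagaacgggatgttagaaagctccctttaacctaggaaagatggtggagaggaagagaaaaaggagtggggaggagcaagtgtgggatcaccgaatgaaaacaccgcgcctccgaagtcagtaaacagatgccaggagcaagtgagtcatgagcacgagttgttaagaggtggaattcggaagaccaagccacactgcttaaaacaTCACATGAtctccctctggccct
The site starts 23 bases before the gene start. Searched on both strands, TCATGTGA (TCACATGA on the other strand) was in 327 of 33469 promoter windows of 250 bases (0.977%), and its core CATGTG, on either strand, was in 12.1%. The 5 members had 5 windows in all, and those of Mitf, Tfeb, Tfe3 and Tfec held neither of these, nor CACGTG. Any other start sites of these genes were not searched.

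The palindrome CACGTG, which includes every TCACGTGA, was in 5.59% of all windows, and TCACGTGA was in 0.657%. Among lysosomal genes of the CLEAR network, 29 of 40 had a promoter in the table, and 13 of these windows (44.8%) held CACGTG and 6 (20.7%) TCACGTGA. The site is shown in capitals for Ctsd, the protease cathepsin D, and Lamp1, a membrane protein of the lysosome, as genes of this kind that were also detected here. The Ctsd stretch is chr1:206968822-206968843 and the Lamp1 stretches are chr16:83075111-83075140 and chr16:83075084-83075113, all on the minus strand of GRCr8.
Ctsd: tcgcccgcgtcTCACGTGAccc
Lamp1 site at 66 bases: agaccctcggcTCACGTGAccggcgggcgc
Lamp1 site at 39 bases: cgcggcactgtTCACGTGAcaggcgctgcc
A match is a description of these letters only and no binding was measured. CLEAR genes were first grouped partly by such sites, so their shares are not independent of how the list was made.

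Signals are intensities in arbitrary units after background subtraction by the scanner software, and "called" means that the software marked the probe as well above background there. Levels are log2 signals relative to the 75th percentile of probes called on all 4 arrays, which was 384, 281, 236 and 223 on replicates 1 to 4. Levels of different probes are not comparable, because probes bind with different strength. The array of replicate 4 differed from the rest. On it, 2952 probes were called that no other array called, against 96 to 918 for the others, and 656 gene spots were non-uniform against 9 to 34. The median of its negative control spots was 4.65, against 2.98 to 3.36. The ranges of the members are therefore also given without it.

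Of the 5 genes, 3 were called on all 4 arrays (Gpnmb, Mitf and Tfe3), as were 11.7% of all named genes. Tfeb was called on 2 arrays and Tfec on none. By probe, 3 of 8 were called on all arrays, against a background of 7.04% of gene probes, and 3 of 8 on none, against 80.3%. No gene spot was saturated.

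**Figure D1:**
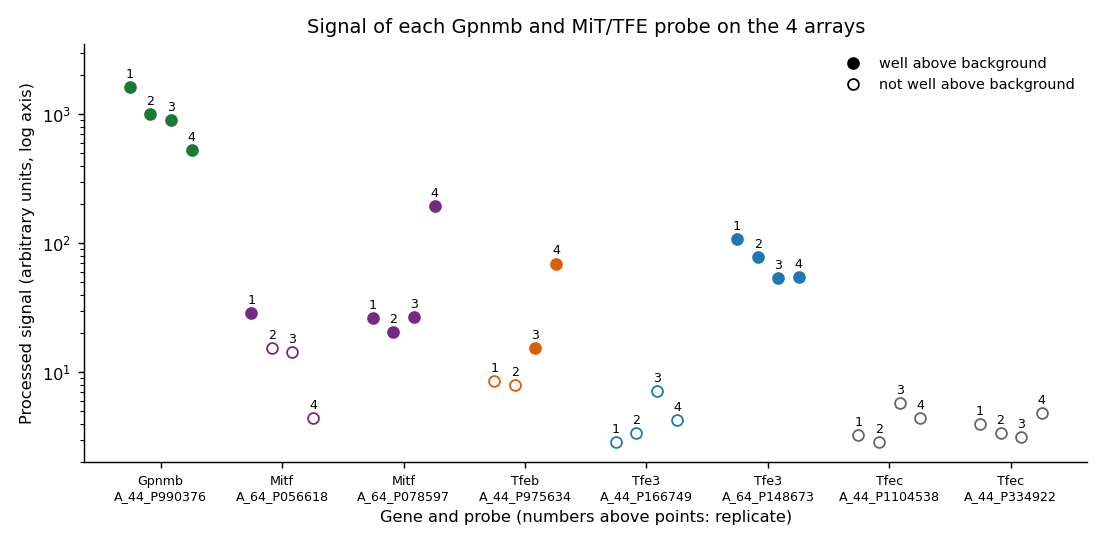
Processed signal (log axis) of each of the 8 probes on replicates 1 to 4, with filled points where the probe was well above background and open points where it was not. Gpnmb lies between 532 and 1637, while both Tfec probes lie between 2.89 and 5.77 and are open on every array.

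Gpnmb was far above background on every array. Its single probe (A_44_P990376, transcript NM_133298) is printed 10 times on each array, and its mean signals were 1637, 999, 898 and 532 on replicates 1 to 4. That is 487, 335, 271 and 115 times the median negative control spot of the same array. The scaled levels were 2.09, 1.83, 1.93 and 1.25, with a mean of 1.78 ± 0.36 (SD, n = 4). Replicate 4 was the lowest before and after scaling.

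The repeated spots show how well this value was measured. On replicate 1 the spots ran from 1506 through a median of 1657 to 1912, with 1 of 10 left out as an outlier. They ran from 866 to 1182 on replicate 2, from 790 to 1058 on replicate 3 and from 475 to 575 on replicate 4. The SD between spots of an array was 0.08 to 0.13 on the log2 scale. After scaling, the spots of replicate 4 lay between 1.09 and 1.37, and the lowest spot of the other arrays was at 1.62. How many other probes printed 10 times show such a gap was not counted. Spots are repeats of 1 culture and 1 labelling, so the gap separates arrays and not conditions.

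Replicate 4 was lower in Gpnmb by 1.62-fold, a difference of -0.70 from the mean of the other 3 arrays, which was 1.95 ± 0.13 (SD, n = 3). Among all detected probes, 8.73% were lower on replicate 4 by over 1.5-fold, as were 6.77% of those printed 10 times, and 174 of 3208 were lower by more than Gpnmb. Without scaling the difference was -1.10. Between highest and lowest array Gpnmb ranged over 0.84 log2 units, or 0.30 when replicate 4 was left out.

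Mitf, the family member best known from pigment cells, osteoclasts and mast cells, was measured by 2 probes that went apart. Both carry the accession NM_001191089 and each is printed once. RefSeq lists 11 transcripts of rat Mitf, and where the probes lie on them was not analysed here. Probe A_64_P078597 had signals of 26.5, 20.3, 26.6 and 195 on replicates 1 to 4 and was called on every array. Probe A_64_P056618 had signals of 28.6, 15.4, 14.3 and 4.43 and was called on replicate 1 alone, as were 2.01% of gene probes. On replicate 4 the first probe was thus at its highest and the second at its lowest.

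For A_64_P078597 the scaled levels were -3.86, -3.79, -3.15 and -0.19 (mean -2.75 ± 1.73, SD, n = 4). Replicate 4 lay 3.40 log2 units above the mean of the other arrays, or 10.6-fold. No other of the 3208 detected probes had a larger difference in this direction, and 0.717% of them passed 4-fold. This spread was why Mitf was chosen, so nothing is read from its rank. Without replicate 4 the probe ranged over 0.65 log2 units in place of 3.66, and with normexp background correction the difference was 1.75.

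For A_64_P056618 the scaled levels were -3.75, -4.19, -4.05 and -5.65, so replicate 4 differed by -1.66. This value has no lower limit that the array can measure. The software did not call the spot positive and significant on replicate 4, and its signal of 4.43 was below the negative control limit of 7.38 on that array (95th percentile plus 10%). Set at the lowest signal called on replicate 4, at a level of -3.63, the difference would be 0.36, so a fall is not shown. With normexp correction it was 0.07.

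**Figure D2:**
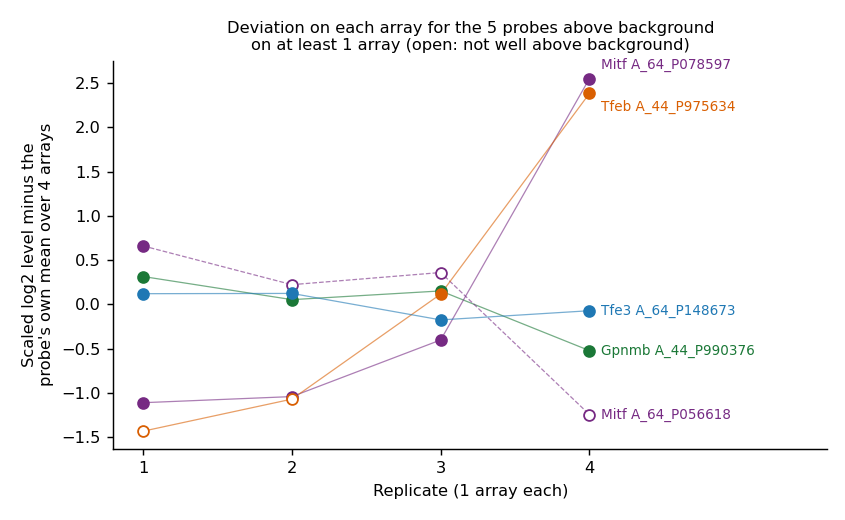
Scaled log2 level of each probe minus its own mean over the 4 arrays, for the 5 probes called on at least 1 array, with open points where the probe was not well above background and thin lines that only join the points of a probe. On replicate 4, Mitf A_64_P078597 lies at 2.55 and Tfeb at 2.38, Mitf A_64_P056618 at -1.24, Gpnmb at -0.52 and Tfe3 at -0.07.

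Set against each other, the Mitf probes differed by 5.06 log2 units in how replicate 4 lay relative to the other arrays, and by 3.04 with the second probe set at the lowest signal called on replicate 4. Neither is a lower bound, since the second probe was not called on replicates 2 and 3 either. With normexp, whose offset shrinks differences of dim probes, the difference was 1.68. The same was computed for 152 transcripts with 2 single-spot probes, of which the brighter was called on all arrays and the other on at least 1. Their median difference was 0.36, 10.5% differed by at least 2, and none other differed by as much as the Mitf pair. In the 87 pairs with both probes called on all arrays the median was 0.23. Mitf was chosen for its spread on these arrays, so nothing is read from the rank of its pair.

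Values that could move with the high Mitf spot were taken beside it. On replicate 4 its 46 neighbours in a window of 7 by 7 spots had a median unscaled difference of 0.47 against 0.39 for all gene spots, and 10.9% of them were over 4-fold against 9.55%. The spot carried no non-uniform flag. Among detected probes printed once, 0.948% were over 4-fold higher on replicate 4, against 0.141% (1 of 709) of those printed 10 times. Among 528 single-spot probes with a level on replicates 1 to 3 within 2-fold of this one, the share was 3.41%. The part of array quality in the Mitf value was not tested.

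Tfeb, the best studied driver of lysosome and autophagy genes, had 1 probe (A_44_P975634, NM_001025707) with signals of 8.51, 8.0, 15.3 and 69.6. It was called on replicates 3 and 4 only, a pattern of 0.0461% of gene probes. Scaled levels were -5.50, -5.13, -3.95 and -1.68, so replicate 4 was again the highest. On the scaled level it was 9.37-fold above replicate 1 and 6.52-fold above replicate 2, with the lowest called signal of the array in place of the probe. It was 4.81-fold above replicate 3. The values for replicates 1 and 2 are not strict lower bounds, since an uncalled spot can exceed the lowest called signal. The difference from the mean of the other arrays was 3.18, or 1.22 with normexp correction, whose offset shrinks differences of dim probes. Without replicate 4 the probe ranged over 1.5 log2 units in place of 3.82. Its 46 neighbours on replicate 4 had a median difference of 0.34, and 13.0% were over 4-fold. The probe is printed once, and the part of array quality was not tested. Measured against negative control spots, Tfeb was above the limit on all 4 arrays, so 4 of 5 members were detected by that rule, against 20.1% of named genes.

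Tfe3, which acts with Tfeb in macrophages and with Mitf in osteoclasts, ranged over 0.30 log2 units, or 0.35 without replicate 4. Its probe A_64_P148673 (NM_001271227) had signals of 107, 78.8, 53.8 and 54.6 and was called on every array. Scaled levels were -1.84, -1.83, -2.13 and -2.03, with a mean of -1.96 ± 0.15 (SD, n = 4). Replicate 4 lay inside the range of the others. Its difference of -0.09 was 0.17 with normexp, -0.76 after quantile normalization and -0.49 without scaling. The second probe of the same transcript, A_44_P166749, had 2.90, 3.36, 7.10 and 4.28 and was called on no array.

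Tfec, a member restricted largely to macrophages and related cells in textbook accounts, was not well above background. Its probe A_44_P334922 (NM_022379) had signals of 4.00, 3.38, 3.17 and 4.82. Probe A_44_P1104538 (XM_006236128) had 3.25, 2.89, 5.77 and 4.40. The negative control medians of the same arrays were 3.36, 2.98, 3.31 and 4.65. These values are a limit of the probes and arrays, not a level of 0.

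**Figure D3:**
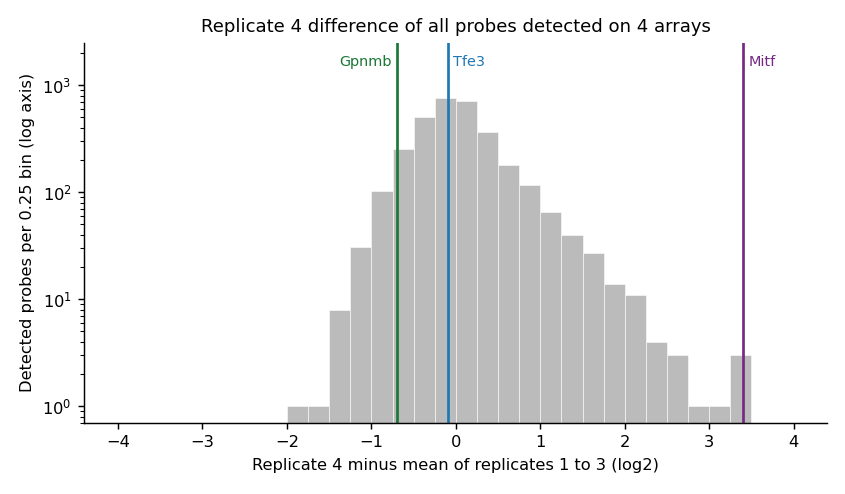
Number of detected probes (log axis) by the log2 difference between replicate 4 and the mean of replicates 1 to 3, with lines for the members called on all arrays. Tfe3 lies at -0.09 within the bulk, Gpnmb at -0.70 with 174 of 3208 probes lower, and Mitf A_64_P078597 at 3.40 at the right end.

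Over the 4 arrays the detected members had SDs of 0.15 for Tfe3, 0.36 for Gpnmb and 1.73 for Mitf A_64_P078597, where the median of detected named genes was 0.241. The order of Tfe3 and Gpnmb rests on replicate 4, since over the other 3 arrays the SDs were 0.17 for Tfe3 and 0.13 for Gpnmb. Of these 3, only Mitf ranged over more than 2-fold between highest and lowest array, as did 14.9% of detected probes.

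The genes with the most similar profile were found by the root mean square difference of centred log2 levels over the 4 arrays, among 1944 detected genes. For Gpnmb these were Ube2r2 (0.011), Acadl (0.014), Stmn1 (0.025), Echs1 (0.033) and Ddx23 (0.044), where the median gene was at 0.326. Ube2r2 encodes a ubiquitin-conjugating enzyme, Acadl and Echs1 enzymes of fatty acid oxidation, Stmn1 the microtubule regulator stathmin and Ddx23 a splicing helicase. Acadl, also printed 10 times, had levels of -0.76, -1.05, -0.96 and -1.60. All 5 were lowest on replicate 4.

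For Mitf A_64_P078597 the nearest were Arl8a (0.058), Fam3c (0.092), N4bp3 (0.193), Pigr (0.311) and Osgep (0.412), where the median gene was at 1.54. Arl8a is a small GTPase of the lysosome and Pigr the polymeric immunoglobulin receptor. Signals of Fam3c were 26.1, 17.6, 24.6 and 162, and those of Pigr 73.9, 56.3, 69.9 and 324. All 5 rest on a single spot per array. N4bp3 and Pigr have a second probe, which had 7.21 and 12.3 on replicate 4 and was called on no array. With 4 arrays that include 1 set apart, these lists mostly order genes by their value on that array.

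Genes around the family were counted in lists, beside 11.7% for all named genes. Without replicate 4, 69 of the 169 list genes with a probe were called on all remaining arrays in place of 57, and 14.8% of named genes. The lists were chosen with earlier results of these data known. Of 29 regulators of MiT/TFE factors with a probe, 11 were called on all arrays (37.9%) and 9 on none. The 14-3-3 genes Ywhae and Ywhab had levels of 0.94 ± 0.29 and 0.09 ± 0.17 (SD, n = 4). Rragc, a GTPase that brings the factors to mTORC1, had 0.24 ± 0.08, and Flcn, folliculin, which acts on it, -0.64 ± 0.38. Lamtor2, part of the Ragulator scaffold, had 0.03 ± 0.56 with signals of 337, 256, 177 and 402, and the kinase gene Mapk3 -0.59 ± 0.15. Fnip1, a partner of folliculin, Rraga and Rragd were not called on any array. Of the 11, 8 were lower and 3 higher on replicate 4, with a median difference of -0.12 against -0.07 over named genes. Among those given here, Ywhae, Ywhab, Rragc and Flcn were lowest on replicate 4, Flcn with a difference of -0.75, and Lamtor2 was highest there.

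Of 12 inputs and partners of Mitf, 4 were detected (33.3%). Hint1, a protein that binds Mitf, had 0.51 ± 0.25, Rps6ka1, a kinase downstream of receptor signalling, -0.50 ± 0.19, and Pax3, an activator of Mitf in pigment cells, -0.87 ± 0.23 (SD, n = 4). Csf1r and Kit, receptors that signal to Mitf in macrophages and mast cells, were not called on any array. Of 14 other E-box binding factors, 2 were detected (14.3%), Mnt at -1.59 ± 0.54 and Srebf2 at -2.24 ± 0.19. Usf1 and Max were not called.

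CLEAR lysosomal genes were detected in 18 of 37 cases (48.6%), with 10 called on no array. They included the protease genes Ctsb at 2.60 ± 0.13, Ctsd at 1.22 ± 0.12 and Ctsa at 0.58 ± 0.15, and the membrane protein gene Cd63 at 1.02 ± 0.07 (SD, n = 4). The proton pump subunits Atp6v0c and Atp6v0b had 0.31 ± 0.16 and 0.05 ± 0.23. Galns was not called. The median SD of the 18 was 0.221, close to that of named genes, and their median difference on replicate 4 was 0.16, with 11 higher and 7 lower, against -0.07 over named genes. Of the 6 genes with TCACGTGA, Ctsd, Lamp1, Pip4p1 and Atp6v0d1 were detected, and Cln3 and Slc36a1 were not called.

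Of 17 CLEAR autophagy genes, 5 were detected (29.4%). They included Gabarapl1 at 0.16 ± 0.35 and Map1lc3b at 0.07 ± 0.23, which coat autophagosomes, and the cargo receptor gene Sqstm1 at 0.21 ± 0.16 (SD, n = 4). Uvrag and Wipi1 were not called. Gabarapl1, printed 10 times, had signals of 558, 329, 266 and 179, and differed by -0.63 on replicate 4.

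**Figure D4:**
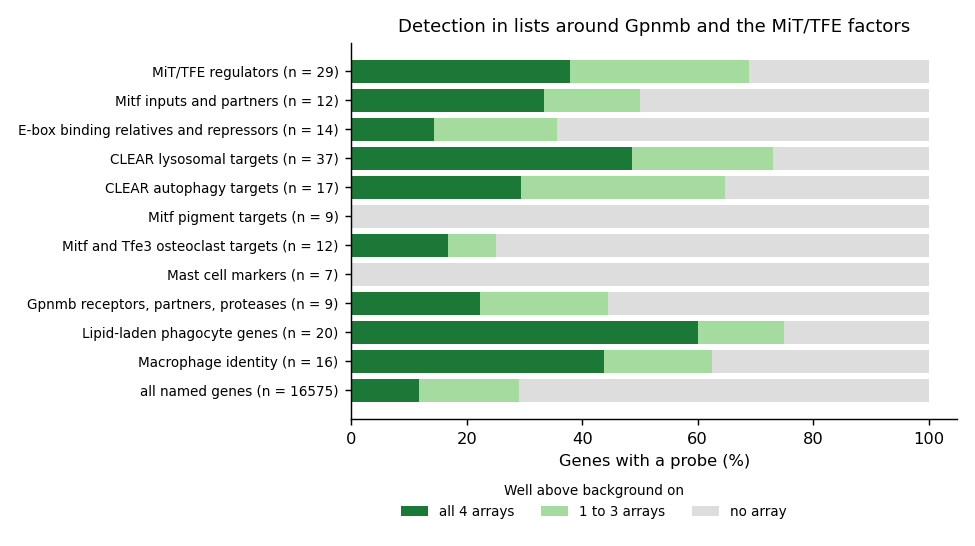
Share of the genes with a probe in each list that were called on every array, on 1 to 3 arrays, or on none, with the number of genes after each name. The pigment and mast cell lists have no gene called on any array, and 60.0% of the lipid-laden phagocyte genes were called on all arrays, against 11.7% of named genes.

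Genes that mark macrophages rich in Gpnmb were detected in 12 of 20 cases (60.0%). Of these, Ctsb, Ctsd and Cd63 are also counted among CLEAR lysosomal genes, and Tyrobp among macrophage identity genes. Fabp5, a fatty acid carrier, had 2.83 ± 0.06, Trem2, a lipid-sensing receptor, 2.75 ± 0.06, and Ctsb the level given above. Apoe and Spp1, often named with Gpnmb in such cells, were not called. Of the 12, 7 were lower and 5 higher on replicate 4, with a median difference of -0.03. Of 9 receptors, partners and proteases of Gpnmb, 2 were detected (22.2%), among them the receptor gene Cd44 at -1.10 ± 0.18 (SD, n = 4). Without replicate 4, or against negative control spots, 4 of the 9 were detected. Sdc4 and Itga5 were not called.

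Markers of other cell types that use Mitf were also counted. None of 9 pigment genes and none of 7 mast cell genes was called on any array, and neither were 71% of all named genes. The uncalled markers included Tyr, Tyrp1, Kit and Cpa3, while Pax3, which also acts in pigment cells, was called on all arrays. Summed over the list, pigment signals lay between 28.1 and 40.1 and mast cell signals between 20.9 and 42.0. Of 12 osteoclast genes 2 were detected, Tcirg1 at 0.62 ± 0.49 and Nfatc1 at -2.17 ± 0.23 (SD, n = 4), while the defining Acp5 and Ctsk were not called. Of 16 macrophage identity genes, 7 were detected (43.8%), with Lyz2 at 2.50 ± 0.11, Tyrobp at 2.44 ± 0.10 and Fcgr3a at -0.55 ± 0.15. Csf1r and Itgam were not called.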

How the data were processed

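RNA from the 4 cultures (100 ng each, integrity number above 7.5, per the labels' protocols) was labelled with Cy3 and hybridised to 1-colour Agilent arrays. The deposited intensity values are spot signals after background subtraction by the scanner software (the submitters' processing notes name Agilent Feature Extraction 11.0.1.1), and were not scaled between arrays. Flags are the software's own, per the file headers. Probe sequences were not used here, and the files' rat build is older than GRCr8, so no gene coordinates are given apart from those of the promoter table.

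Control spots and spots flagged as non-uniform or population outliers were left out. The log2 signals of a probe's spots were averaged, and a probe was called when over 50% of its spots were. Accessions without version named 21102 of 45598 probes through the RefSeq gene table of GRCr8. Where more than 1 probe of a gene was detected, the brightest by mean was used, and a gene was not called only if all its probes were not. Named genes are all member probes, the 5 nearest profiles, and per list the 3 brightest detected and first 2 uncalled genes (6 and 3 for regulators and CLEAR lysosomal genes); a few genes that the rule names are not reported here. Members and lists were chosen with earlier results of these data known.

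Alternatives were other scalings, normexp with an offset of 50 (limma version 3.58.1, R version 4.3.3) on the deposited median intensity, all spots kept, detection by negative controls or on at least 3 arrays, and leaving out each array. Computation used Python 3.11.15, numpy 2.4.6 and pandas 2.3.3. The scaling, the replicate differences and the profile search were tested on simulated data. These stood for probes called on all 4 arrays, with the same noise for each. Probes not called on every array, or with more noise at low signal, were not covered. The number of arrays limits the precision.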

Additional observations from a re-analysis of the deposited data

Results flagged for a closer look

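Of 48 probes looked at, 3 had an array far from the others by the limit of Dixon's criterion for 4 values. The limit served as a flag and not as a test. These were probes called on all 4 arrays, of the members, of genes taken by the naming rule and of other genes named here. Sqstm1 had a level of 0.44 on replicate 1 and of 0.11 to 0.14 on the other arrays, so the gap was 0.906 of the whole range. Hadha had -1.04 on replicate 4 and -3.50 to -3.30 elsewhere, a gap of 0.919. Tma7 had -1.68 on replicate 4 and -3.82 to -3.72 elsewhere, a gap of 0.955. Hadha and Tma7 were picked for their high value on that array. Chance alone sets apart about 1 in 20 groups of this size. That rate does not hold for probes picked for their values on these arrays, Mitf and its nearest profiles among them, so nothing is read from the count.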

How the results depend on the processing

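Scaling by all gene probes, which follows signal near background and is the same as using no filter on dim probes, gave Gpnmb a level of 7.42, a range of 2.41 and a replicate 4 difference of -2.26. It gave Mitf A_64_P078597 a level of 2.89, Tfe3 a level of 3.68, a range of 1.93 and a difference of -1.66, and Mitf A_64_P056618 a difference of -3.23. The median difference of all detected probes on replicate 4 was then -1.59, against -0.02 in the main setting, -0.33 after quantile normalization, -0.42 without scaling and 0.10 with normexp. Without scaling, Gpnmb had 9.88, 1.62 and -1.10, Mitf A_64_P078597 a level of 5.35, and Tfe3 6.14, 1.00 and -0.49. After quantile normalization Tfe3 had a range of 0.87 and a difference of -0.76, and Mitf A_64_P056618 a difference of -2.66. With normexp Tfe3 had a level of -1.31 and a difference of 0.17, turned in sign, and Mitf A_64_P056618 had a difference of 0.070, also turned in sign. Normexp gave Tfeb a difference of 1.22 and the Mitf probes one of 1.68 from each other. Leaving out each array gave Gpnmb levels of 1.68 to 2.35 and ranges of 0.30 to 0.85, Mitf A_64_P078597 ranges of 0.65 to 3.70, and Tfe3 levels of -1.99 to -1.53, with the far value from leaving out replicate 4. Against negative control spots, 86 of 169 list genes were detected in place of 57, and 4 members in place of 3, while the share of all named genes rose from 11.7% to 20.1%. No paired analysis was possible because there is 1 group.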

Other observations

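In all, 23 detected probes were over 4-fold higher on replicate 4, and 16 of them had a gene symbol. Of 8 whose gene had another probe, 2 had another probe well above background on that array (Hadha and Tma7, named after their values were seen). Among the 23 probes, Ccl2 was the only one printed 10 times, with signals of 66.3, 42.2, 70.6 and 189. Apoe, printed 10 times and called on no array, had 4.24, 3.73, 3.85 and 18.1.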
